A study of Mus musculus with 18 samples.

Results

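The genes of the nuclear-encoded respiratory chain were followed across 5 populations of cells sorted from mouse neck muscle and from hedgehog-driven tumors. Members were all genes whose symbol begins with Ndufa, Ndufb, Ndufc, Ndufs, Ndufv, Sdha to Sdhd, Uqcr, Cox4, Cox5, Cox6, Cox7 or Cox8, without pseudogenes, and each gene was read from its probe set with the highest mean. The rule found 74 of the 22180 genes with a single symbol on the array. By role these were 6 catalytic core subunits and 26 accessory subunits of complex I, 4 subunits of complex II, 7 of complex III, 17 of complex IV, the pair Ndufa4 and Ndufa4l2, and 12 assembly factors whose symbols share the same first letters. The filter on dim values kept 72 members, and left out Cox7b2 and Cox8c, which lay below the 40th percentile of their own array on every array.

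Every mouse carried aP2-Cre, a recombinase driven by regulatory DNA of Fabp4 (which encodes a lipid carrier of adipocytes and of some endothelial cells), and a tdTomato reporter that Cre switches on, so Tomato records present or past Cre activity and is not itself a cell type. Normal sternocleidomastoid muscle (genotype aP2-Cre/+;tdTomato/+, written without the final /+ in 1 label, strain B6;SJL) was taken at postnatal day 21 and gave Tomato-negative and Tomato-positive cells, 3 arrays each. Tumors (genotype aP2-Cre/+;tdTomato/+/;SmoM2/+, strain BJ;SJL;B6.129) carried in addition the active Smoothened allele SmoM2, and gave 3 sorted populations with 4 arrays each: cells negative for both Tomato and Pecam1, cells with Tomato but no Pecam1, and cells with both. Day 48 was the age for tumor repeats 1 to 3, and day 38 for repeat 4. Pecam1 is a surface protein of endothelial cells. Tomato-positive cells are called marked below and Tomato-negative cells unmarked. The labels call the arrays biological repeats and do not say how many animals stood behind each. Tumor and muscle differ in age, strain and SmoM2 at once, and these cannot be told apart.

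The respiratory chain passes electrons from NADH (through complex I) and succinate (through complex II) to ubiquinone, on to cytochrome c (through complex III) and to oxygen (through complex IV, cytochrome c oxidase), and complexes I, III and IV pump the protons that drive ATP synthase. The members are nuclear genes, whereas the mitochondrial genome encodes further subunits that the rule does not cover. Several small subunits of complex IV come as a form of most tissues and a form of heart and skeletal muscle: Cox6a1 and Cox6a2, Cox7a2 and Cox7a1, Cox8a and Cox8b. Skeletal muscle fibers are rich in mitochondria, while capillary endothelial cells are known to rely more on glycolysis.

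Values are deposited log2 intensities. A difference of 1 is a 2-fold difference, and levels of different genes are not set against each other because probe sets differ in their response. The blood endothelial list (12 genes) had a mean level of 10.3 to 10.4 in marked muscle cells and 10.5 to 11.1 in Pecam1-positive tumor cells, against 5.92 to 7.17 in the other 3 populations. The fibroblast list (8 genes) lay at 10.3 to 11.1 in those 3 and at 5.49 to 7.15 in the endothelial ones. The sarcomere list (14 genes) was present in the unmarked muscle cells at 7.62, 5.97 and 7.25 in repeats 1 to 3, with repeat 2 low. The salivary gland list (8 genes) was high on the muscle arrays of repeats 1 and 2, at 8.67 and 6.38 in unmarked and 7.17 and 6.57 in marked cells, against 4.54 and 4.46 in repeat 3 and 4.13 to 4.37 in tumor. The count of members called, or their median change, without muscle repeats 1 and 2 is therefore given in each comparison that uses muscle. Counts by complex and list are given where they are first described. In the tumor arrays the mean over the 3 populations was equal for all 4 repeat numbers, within 7.67e-05 at each of the 41345 probe sets, against a median range of 0.248 in muscle, so variation between tumors that all populations share is missing from the deposited values and the p-values are too small.

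Promoters of members were read from RefSeq (GRCm38.p6), which held 63 promoters for 61 of the 74 members, as the 250 bases before the start. The pairs Cox7a1 with Cox7a2 and Cox8b with Cox8a are shown because the muscle form of each ranged more widely over the populations than its partner. Cox6a2 also ranged more widely than its partner Cox6a1, but its window is not shown. Cox6a1 and Sdhd are shown because they alone among the members held both the ETS and the NRF1 motif. Capitals mark matches, on either strand, to the motifs searched: the E-box CANNTG that myogenic and other basic helix-loop-helix factors bind, its form CAGCTG, the TATA box TATAAA, the ETS motif CCGGAAG bound by GABP among others, the palindromic NRF1 core and CCATNTT for YY1. GABP, NRF1 and YY1 are known regulators of nuclear respiratory genes.
Cox7a1: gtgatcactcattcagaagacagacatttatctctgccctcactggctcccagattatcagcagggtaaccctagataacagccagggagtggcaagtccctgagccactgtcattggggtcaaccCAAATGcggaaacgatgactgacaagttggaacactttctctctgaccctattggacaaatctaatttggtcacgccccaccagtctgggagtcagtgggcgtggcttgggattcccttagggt
Cox8b: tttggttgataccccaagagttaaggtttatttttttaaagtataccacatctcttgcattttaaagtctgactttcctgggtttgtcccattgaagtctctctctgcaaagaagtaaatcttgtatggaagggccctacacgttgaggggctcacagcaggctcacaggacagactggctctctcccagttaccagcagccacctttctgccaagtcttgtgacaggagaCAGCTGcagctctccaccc
Cox7a2: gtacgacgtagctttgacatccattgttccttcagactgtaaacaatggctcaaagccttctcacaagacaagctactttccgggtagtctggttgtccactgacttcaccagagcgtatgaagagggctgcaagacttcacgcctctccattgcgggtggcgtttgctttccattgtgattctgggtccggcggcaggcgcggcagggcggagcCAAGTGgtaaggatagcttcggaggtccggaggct
Cox8a: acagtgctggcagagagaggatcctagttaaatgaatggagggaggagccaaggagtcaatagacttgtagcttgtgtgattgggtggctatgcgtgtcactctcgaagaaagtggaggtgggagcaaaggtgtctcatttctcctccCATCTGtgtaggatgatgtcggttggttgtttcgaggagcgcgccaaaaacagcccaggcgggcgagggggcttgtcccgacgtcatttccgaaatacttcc
Cox6a1: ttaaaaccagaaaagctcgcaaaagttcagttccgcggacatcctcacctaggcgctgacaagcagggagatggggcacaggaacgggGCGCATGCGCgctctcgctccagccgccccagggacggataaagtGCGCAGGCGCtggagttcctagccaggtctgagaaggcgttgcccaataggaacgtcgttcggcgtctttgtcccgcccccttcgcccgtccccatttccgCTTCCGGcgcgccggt
Sdhd: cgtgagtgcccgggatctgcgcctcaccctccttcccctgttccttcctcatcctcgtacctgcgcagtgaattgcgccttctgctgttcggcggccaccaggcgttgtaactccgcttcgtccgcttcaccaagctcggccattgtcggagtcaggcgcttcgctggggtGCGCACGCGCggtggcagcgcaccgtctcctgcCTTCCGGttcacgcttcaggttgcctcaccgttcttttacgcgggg
The windows are chr7:30183921-30184170 on the plus strand for Cox7a1, and on the minus strand chr7:140900447-140900696 for Cox8b, chr9:79759854-79760103 for Cox7a2, chr19:7217617-7217866 for Cox8a, chr5:115348959-115349208 for Cox6a1 and chr9:50603850-50604099 for Sdhd. Cox7a1, Cox8b, Cox7a2 and Cox8a each held 1 E-box, and that of Cox8b was a CAGCTG, 19 bases before the start. Cox6a1 held 2 NRF1 matches and 1 ETS match, and Sdhd held 1 of each. The ETS motif stood in 19.0% of member promoters against 6.91% of all 32851 promoters of the table, and the NRF1 core in 17.5% against 4.98%. The E-box stood in 63.5% against 66.2%, CAGCTG in 7.94% against 13.0%, TATAAA in 9.52% against 12.4% and CCATNTT in 14.3% against 12.4%. These shares are descriptions of the letters in the window.

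The comparison of marked with unmarked cells of normal muscle asked how the respiratory chain of the cells with aP2-Cre history differed from that of the other cells of the muscle. Of 72 members 34 fell in the marked cells and 1, Ndufa8, rose. Of all genes tested 39.7% were called, 20.5% as lower and 19.1% as higher, so the share of members called (48.6%) was not far above the background while its direction was one-sided. The median change over the members was -0.32, against 0.00 for all genes. In 44 of 72 members the arrays of the groups did not overlap (61.1%, against 48.6% of all genes). With the repeat number as a block 27 were called, 26 lower and 1 higher (32.4% of all genes called). In bulk samples fewer cells of a type and less RNA per cell cannot be told apart. Without muscle repeats 1 and 2, which leaves 1 array a group whose spread is taken from the other groups, 15 members were called (20.8%, against 22.7% of all genes), all lower. Other lists fell in the same comparison, the fibroblast list most, in 8 of 8 genes (median -4.83). The myogenic progenitor list fell in 6 of 6 (median -3.27) and the cell cycle list in 7 of 7 (median -1.78). The Schwann and glial list fell in 4 of 4 (median -2.07) and the leukocyte list in 6 of 8 (median -1.43), while the blood endothelial list rose in 12 of 12. The part of these lists in the result was not tested. By complex, 5 of 32 complex I subunits, 2 of 7 of complex III and 7 of 15 of complex IV were lower without those repeats.

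All 4 genes of complex II, succinate dehydrogenase, fell in marked muscle cells. Sdhb, its iron-sulfur subunit, lay at 7.72, 7.82 and 7.76 in unmarked and at 6.998, 7.12 and 7.38 in marked cells, and fell by 0.60 (SE 0.094, adjusted p = 5.02e-05). Sdhc, a membrane anchor, lay at 8.28, 7.98 and 8.17 in unmarked and at 7.49, 7.34 and 7.40 in marked cells, a fold of 1.66 lower (adjusted p = 0.00195). In both genes every marked array was below every unmarked one. Sdhd, the other anchor, fell by 0.52 (7.24 ± 0.05 against 7.77 ± 0.14, adjusted p = 0.00327). Sdha, the flavoprotein that oxidises succinate, had the smallest difference of the 4, -0.28 (8.99 ± 0.13 against 9.27 ± 0.08, adjusted p = 0.0208), and its call was lost when repeat number entered as a block (adjusted p = 0.0851). Without muscle repeats 1 and 2 none of the 4 passed, although the changes kept their sign: -0.09 in Sdha, -0.39 in Sdhb (adjusted p = 0.058), -0.77 in Sdhc (adjusted p = 0.111) and -0.53 in Sdhd (adjusted p = 0.134).

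In complex I, 5 of the 6 core subunits measured fell and the sixth, Ndufs8, differed by -0.26 without passing. Ndufs1, the largest subunit of the electron-accepting arm, lay at 8.19, 8.18 and 8.35 in unmarked and at 7.56, 7.65 and 7.71 in marked cells (-0.60, SE 0.094, adjusted p = 4.94e-05). Ndufv2 and Ndufs7, which carry iron-sulfur clusters, fell by 0.62 each (adjusted p = 0.00186 and 0.00383). Of the 26 accessory subunits 12 fell, and the sharpest difference was in Ndufa10, which lay at 9.46, 9.67 and 9.50 in unmarked and at 8.56, 8.67 and 8.80 in marked cells (-0.87, adjusted p = 1.34e-05). Ndufa11 fell by 0.67 (adjusted p = 0.00473). Ndufa8 went the other way, from 9.39, 9.35 and 9.53 in unmarked to 9.82, 10.01 and 9.99 in marked cells, a 1.43-fold rise (SE 0.12 on the log2 scale, adjusted p = 0.00234). Its second probe set, which was not used for the call, moved alike, with means of 8.39 ± 0.12 and 8.95 ± 0.13. Without muscle repeats 1 and 2 the changes were -0.64 in Ndufs1, -0.70 in Ndufa10, 0.47 in Ndufa8, -0.57 in Ndufa11, -0.56 in Ndufs7 and -0.66 in Ndufv2. With 1 array left a group, these sizes say nothing on the spread between muscle arrays.

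Complex III had 3 of 7 genes lower: Uqcrfs1, the Rieske iron-sulfur protein, fell by 0.64 (adjusted p = 0.00109), Uqcrh, the hinge protein, by 0.58 (adjusted p = 0.000355) and Uqcr11 by 0.41 (adjusted p = 0.0115, and 0.0531 with the block). The core proteins Uqcrc1 and Uqcrc2 differed by -0.27 and -0.06 and did not pass. Of the 12 assembly factors only Ndufaf4 was called, at -0.54 (adjusted p = 0.00597), and their median change was -0.02. Over all roles the 37 members that did not pass ran from -0.37 in Uqcrq to 0.51 in Sdhaf2.

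In complex IV 8 of 15 tested genes fell, and the muscle forms stood apart by size. Cox7a1 lay at 8.41, 6.98 and 7.73 in unmarked and at 5.78, 5.78 and 5.56 in marked muscle cells, a fold of 4 lower (SE 0.32 on the log2 scale, adjusted p = 6.4e-05), with no overlap. Cox8b lay at 8.74, 5.72 and 7.82 in unmarked and at 5.15, 5.48 and 5.78 in marked cells (-1.95, SE 0.48, adjusted p = 0.00352). Cox6a2 lay at 8.55, 6.23 and 7.55 against 6.25, 6.02 and 6.30 (-1.25, SE 0.35, adjusted p = 0.00879). For Cox8b and Cox6a2 the unmarked array of repeat 2 reached into the range of the marked cells, while repeats 1 and 3 lay well above it. Without the unmarked array of repeat 1 the change was -1.30 in Cox8b (adjusted p = 0.0231) and -0.70 in Cox6a2 (adjusted p = 0.0487), and without that of repeat 2 it was -2.81 in Cox8b. Without muscle repeats 1 and 2 the changes were -2.18 in Cox7a1, -2.04 in Cox8b and -1.25 in Cox6a2. That setting leaves 1 array a group and drops the low unmarked array of repeat 2. It therefore cannot show whether the fall repeats between arrays. Sarcomere genes were low on the same array: Ckm, the muscle creatine kinase, was at 9.63, 5.82 and 8.16 in unmarked cells of repeats 1 to 3, and the whole list fell in 10 of its 14 genes between marked and unmarked cells (median -1.83). The part of fibers or of differentiated muscle cells in the fall of the muscle isoforms was not tested.

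The partners of these isoforms differed less. Cox8a lay at 10.83, 10.95 and 10.90 in unmarked and at 10.20, 10.20 and 10.26 in marked muscle cells (-0.68, SE 0.09, adjusted p = 9.73e-06), a clear fall but smaller than that of Cox8b. Cox7a2 differed by -0.34 (10.46 ± 0.15 against 10.80 ± 0.15, adjusted p = 0.059) and Cox6a1 by -0.12 (11.39 ± 0.16 against 11.51 ± 0.06, adjusted p = 0.35), and neither passed. Their 95% intervals ran from -0.63 to -0.05 and from -0.33 to 0.08.

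Complex IV holds further paired forms. Cox4i1, the common form of subunit 4, fell by 0.36 (adjusted p = 0.0126, and 0.0619 with the block), and Cox4i2, a form known from lung and oxygen-sensing cells, by 0.86 (6.79, 6.74 and 7.16 in unmarked against 6.53, 5.52 and 6.06 in marked cells, adjusted p = 0.00851). Without the marked array of repeat 2 the change in Cox4i2 was -0.60 (adjusted p = 0.0615). Cox6b2, a form known from testis, fell by 1.00 at adjusted p = 0.0468, a call that was lost with the block (adjusted p = 0.101) and without any of 5 of the 6 muscle arrays. Its common partner Cox6b1 differed by -0.36 (adjusted p = 0.0665).

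Ndufa4 and Ndufa4l2 are a pair of related proteins, the first a subunit that joins complex IV and the second a hypoxia-induced relative. Ndufa4 did not pass in muscle (10.90 ± 0.20 against 11.05 ± 0.14, adjusted p = 0.299). Ndufa4l2 lay at 9.08, 8.99 and 9.07 in unmarked and at 8.16, 6.25 and 7.80 in marked cells, a fold of 3.12 lower (SE 0.34 on the log2 scale, adjusted p = 0.000852), with repeat 2 of the marked cells lowest. Without that array the change was -1.07 (adjusted p = 0.00126). Ndufa4l2 is also known as a pericyte gene, and a list of 10 pericyte and smooth muscle genes, written after the values were seen, had mean levels of 9.43 to 9.52 in unmarked and 7.24 to 8.50 in marked muscle cells. The part of these cells in the result was not tested.

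**Figure D1:**
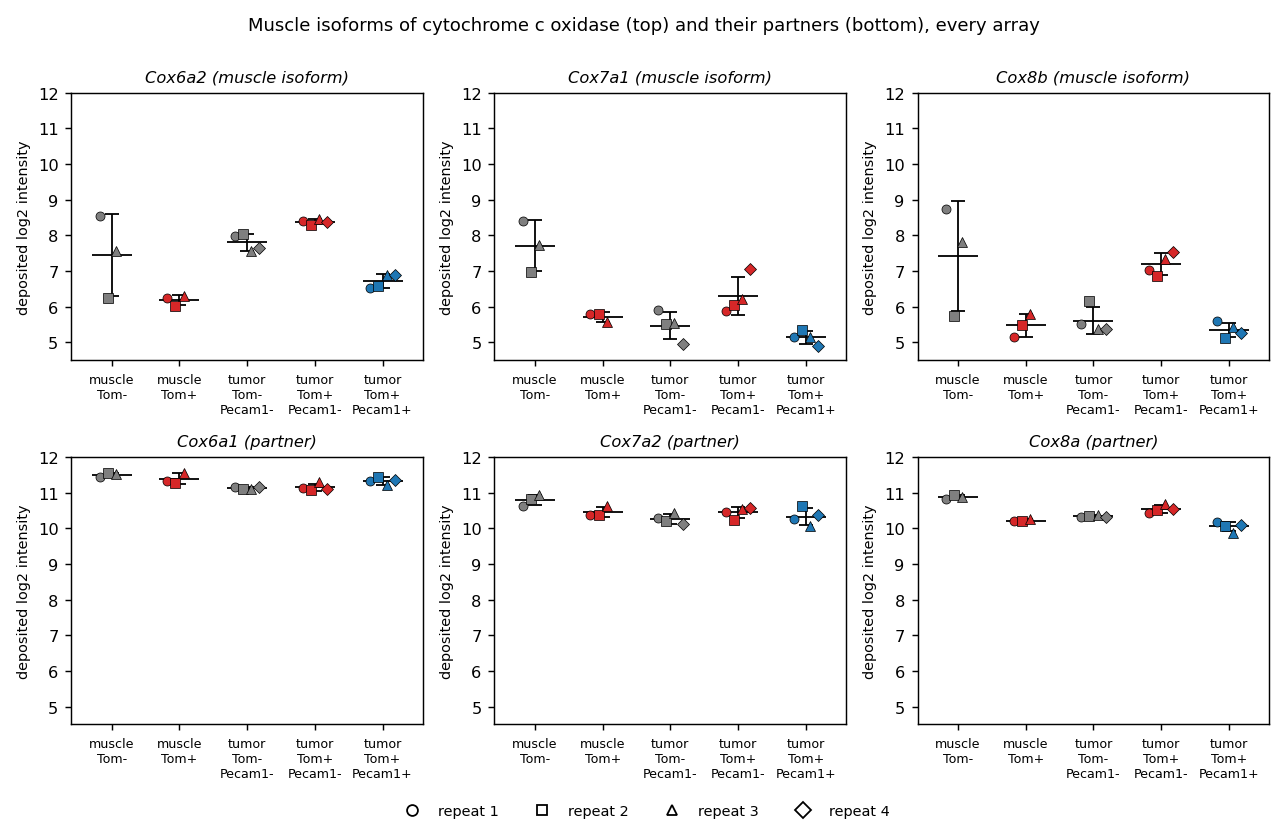
Deposited log2 intensity (vertical axis, the same range in every panel) of the muscle isoforms Cox6a2, Cox7a1 and Cox8b (top) and of their partners Cox6a1, Cox7a2 and Cox8a (bottom) in the 5 sorted populations, with every array as a point shaped by repeat number, the group mean as a bar and its SD as whiskers (n = 3 arrays in muscle, 4 in tumor). The isoforms of muscle spread from 4.88 to 8.74 while each partner stays within a narrow band, and levels of different genes are not comparable.

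The comparison of marked with unmarked Pecam1-negative tumor cells asked whether tumor-derived cells with aP2-Cre history differed from those without. The muscle isoforms Cox8b and Cox7a1 were higher in the marked cells and Ndufa4l2 was lower, but over the members there was little difference. Of 72 members 8 rose and 1 fell (12.5%), against 25.4% of all genes (13.4% higher, 12% lower), with a median change of 0.11 against 0.03, so fewer members were called than the background. With the repeat number as a block 4 were called, 3 higher and 1 lower (16.8% of all genes called). Leaving out single arrays gave 3 to 11 (17.9 to 24.9% of all genes). The lower counts came without unmarked repeat 2 (3), unmarked repeat 1 (4), unmarked repeat 4 (4), marked repeat 1 (5) or marked repeat 4 (5), and without both of repeat 4 the count was 4.

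Cox8b lay at 5.51, 6.16, 5.36 and 5.36 in unmarked and at 7.04, 6.87, 7.34 and 7.52 in marked tumor cells, a 3.02-fold rise (SE 0.42 on the log2 scale, adjusted p = 0.00957). All 4 marked arrays lay above all 4 unmarked ones, and the call was kept with the block and lost without the arrays of repeat 4 (1.40, adjusted p = 0.0587). Cox7a1 lay at 5.89, 5.50, 5.53 and 4.95 in unmarked and at 5.86, 6.04, 6.21 and 7.06 in marked cells (0.83, SE 0.28, adjusted p = 0.0359). The groups overlapped, marked repeat 4, taken at day 38, was highest, and without the arrays of repeat 4 the change was 0.40 (adjusted p = 0.28). With the block its adjusted p was 0.0787. Cox6a2 lay at 7.99, 8.02, 7.56 and 7.64 in unmarked and at 8.41, 8.29, 8.45 and 8.38 in marked cells, without overlap but short of the threshold (0.58, adjusted p = 0.185). The sarcomere list rose in 10 of its 14 genes in the same comparison (median 1.41), with list means of 6.47 to 7.06 in unmarked and 7.81 to 8.29 in marked cells. The leukocyte list fell in all 8 of its genes (median -1.84). The part of either in the result was not tested.

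None of the partners passed here: Cox8a differed by 0.20 (adjusted p = 0.0756, interval 0.03 to 0.36), Cox7a2 by 0.19 (adjusted p = 0.281) and Cox6a1 by 0.02 (adjusted p = 0.916). Among the other members called, Ndufs1 rose from 7.67, 7.73, 7.88 and 7.92 to 8.17, 8.14, 8.15 and 8.01 (0.32, SE 0.081, adjusted p = 0.00812), which was kept with the block and without each array. Ndufa4 rose by 0.30 (11.12 ± 0.06 against 10.82 ± 0.07, adjusted p = 0.0242), a call kept with the block and lost without the arrays of repeat 4 (adjusted p = 0.0925). The calls of Ndufa10 (0.32), Sdhc (0.42), Ndufaf1 (0.37) and Ndufaf2 (0.39) were lost with the block, at adjusted p = 0.104, 0.12, 0.0666 and 0.113. Ndufa4l2 lay at 8.88, 8.98, 8.72 and 8.92 in unmarked and at 7.75, 7.86, 7.83 and 7.11 in marked tumor cells, a fold of 2.36 lower (adjusted p = 0.00514). Its groups did not overlap. In the pericyte and smooth muscle list, 1 of 10 genes fell and 1 rose in this comparison, with changes from -1.90 to 0.75 and list means of 9.07 to 9.42 in unmarked and 9.05 to 9.19 in marked cells, and their part in the result was not tested. The 63 members that did not pass ran from -0.19 in Sdhaf2 to 0.58 in Cox6a2.

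The comparison of Pecam1-positive with Pecam1-negative marked cells set tumor endothelium against the other cells with aP2-Cre history. In the endothelial cells 21 of 72 members were lower and 2, Ndufa8 and Ndufaf3, higher (31.9% called), and 49 did not pass. Of all genes 44.6% were called, 23.6% as lower and 21% as higher, so the share of members called lower was near the background. The median change was -0.16 for members and 0.01 for all genes, and 36.1% of members against 42.6% of all genes had groups without overlap. With the repeat number as a block 18 were called (36.3% of all genes). The fibroblast list fell in 8 of 8 genes (median -3.70), the myogenic progenitor list in 6 of 6 and the cell cycle list in 4 of 7. The pericyte and smooth muscle list fell in 9 of 10 (median -1.33), and the blood endothelial list rose in 12 of 12. The part of these lists in the result was not tested.

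Cox8b had the largest change of the members, and the other muscle isoforms fell as well. Cox8b lay at 5.58, 5.11, 5.43 and 5.25 in Pecam1-positive cells, against 6.87 to 7.52 in the marked Pecam1-negative cells (a fold of 3.6 lower, SE 0.42 on the log2 scale, adjusted p = 0.0016). Cox6a2 lay at 6.51, 6.59, 6.90 and 6.89 against 8.29 to 8.45 (-1.66, adjusted p = 0.000256). Cox7a1 lay at 5.14, 5.35, 5.16 and 4.88 against 5.86 to 7.06 (-1.16, adjusted p = 0.00231). None of the 3 overlapped between these populations. In the same comparison 13 of 14 sarcomere genes fell (median -2.44), with list means of 5.41 to 5.77 in Pecam1-positive cells, and their part in the result was not tested. Of the partners, Cox8a fell by 0.49 (10.05 ± 0.13 against 10.54 ± 0.10, adjusted p = 6.49e-05) and Cox6a1 and Cox7a2 differed by 0.18 and -0.12 and did not pass.

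The rarer forms fell too. Cox4i2 lay at 6.37, 5.96, 6.67 and 6.55 in Pecam1-positive and at 8.07, 7.72, 7.55 and 7.67 in marked Pecam1-negative cells (-1.37, SE 0.21, adjusted p = 3.93e-05), and Cox6b2 fell by 1.71 (6.15 ± 0.72 against 7.87 ± 0.29, adjusted p = 0.000416). Their common partners did not pass, with -0.07 in Cox4i1 and -0.16 in Cox6b1. Ndufa4l2 differed by -0.58 and did not pass (adjusted p = 0.125).

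Complex I followed in part: 10 of its 32 subunits fell, 8 of them accessory. Ndufs1 fell by 0.53 (7.59 ± 0.08 against 8.12 ± 0.07, adjusted p = 3.91e-05) and Ndufa10 by 0.61 (adjusted p = 0.000101). Ndufa8 lay at 10.27, 10.25, 10.22 and 10.37 in Pecam1-positive cells and at 9.40, 9.47, 9.30 and 9.66 in marked Pecam1-negative cells, a 1.76-fold rise (SE 0.11 on the log2 scale, adjusted p = 5.21e-06). Its second probe set had means of 9.22 ± 0.04 and 8.51 ± 0.06. Ndufa8 was thus higher in the endothelial population of both tissues, while the median of its complex was below 0 in both. The arrays compared differ between the tissues, but both tests came from the same fit and share its estimate of spread. The tests are therefore not independent. In complex II Sdhc fell by 0.51 (adjusted p = 0.00854), though without the arrays of repeat 4 by 0.24 (adjusted p = 0.0771), and Sdhb fell by 0.23 (adjusted p = 0.0264, and 0.0758 with the block). In complex III the only call, Uqcrc2 at -0.32, was lost with the block (adjusted p = 0.0836).

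**Figure D2:**
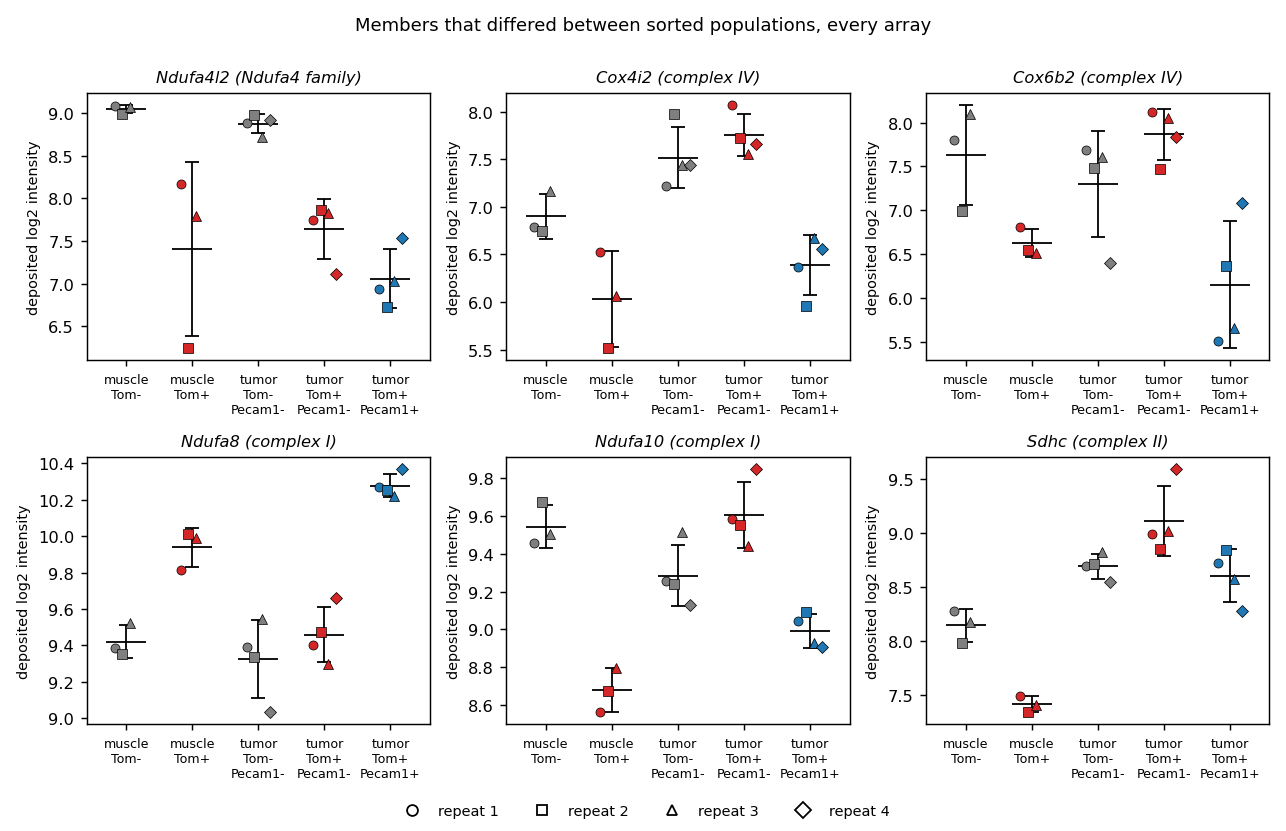
Deposited log2 intensity (vertical axis, a different range in each panel) of Ndufa4l2, Cox4i2, Cox6b2, Ndufa8, Ndufa10 and Sdhc in the 5 sorted populations, with every array as a point shaped by repeat number, the group mean as a bar and its SD as whiskers (n = 3 arrays in muscle, 4 in tumor). Ndufa8 is highest in the marked muscle cells (9.82 to 10.01) and the Pecam1-positive tumor cells (10.22 to 10.37), while Ndufa10 is low in both.

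The difference between the mark effects of the tissues was tested as an interaction, the Pecam1-negative tumor effect minus the muscle effect. It shares its arrays with both comparisons, and the muscle effect sets endothelial against mostly non-endothelial cells while the tumor effect holds no Pecam1-positive cells. Of 72 members 36 had a higher mark effect in tumor and 0 a lower one (50%), against 39.5% of all genes (20.9% and 18.5%). At an unadjusted p under 0.05 in limma 41 had a higher effect and 2 a lower one. With quantile normalization the calls were 39 higher and 0 lower (40.1% of all genes called). With the repeat number as a block they were 25 higher and 0 lower (31% of all genes called). The median interaction was 0.41 for members and 0.01 for all genes. It was called in 18 without muscle repeats 1 and 2. By role the calls were 5 of 6 core and 13 of 26 accessory subunits of complex I, 4 of 4 genes of complex II, 3 of 7 of complex III, 8 of 15 of complex IV, Ndufa4 and 2 of 12 assembly factors. Those without muscle repeats 1 and 2 were 2 core and 5 accessory subunits, 1 gene of complex II, 1 of complex III, 7 of complex IV and 2 assembly factors, against 24.9% of all genes. The interaction was also called higher in all 8 fibroblast genes, all 7 cell cycle genes, all 6 myogenic progenitor genes and 13 of 14 sarcomere genes. It was called lower in all 12 blood endothelial genes. The part of these lists in the result was not tested.

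Cox8b had the largest interaction among the members: its mark effect was -1.95 in muscle and 1.59 in tumor, a difference of 3.55 (SE 0.64, adjusted p = 0.000267). Its unmarked muscle arrays spread widely (SD 1.56 on centred values), which the shared spread behind this SE understates. Cox7a1 followed with 2.83 (adjusted p = 3.93e-05) and Cox6a2 with 1.84 (adjusted p = 0.00469). Among the partners Cox8a passed at 0.87 (adjusted p = 1.62e-05), Cox7a2 at 0.53 (adjusted p = 0.0289, and 0.0748 with the block), and Cox6a1 did not (0.14, adjusted p = 0.42). Ndufa4l2, lower in marked cells of both tissues, had no interaction past the threshold (0.41, interval -0.55 to 1.36, adjusted p = 0.513).

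**Figure D3:**
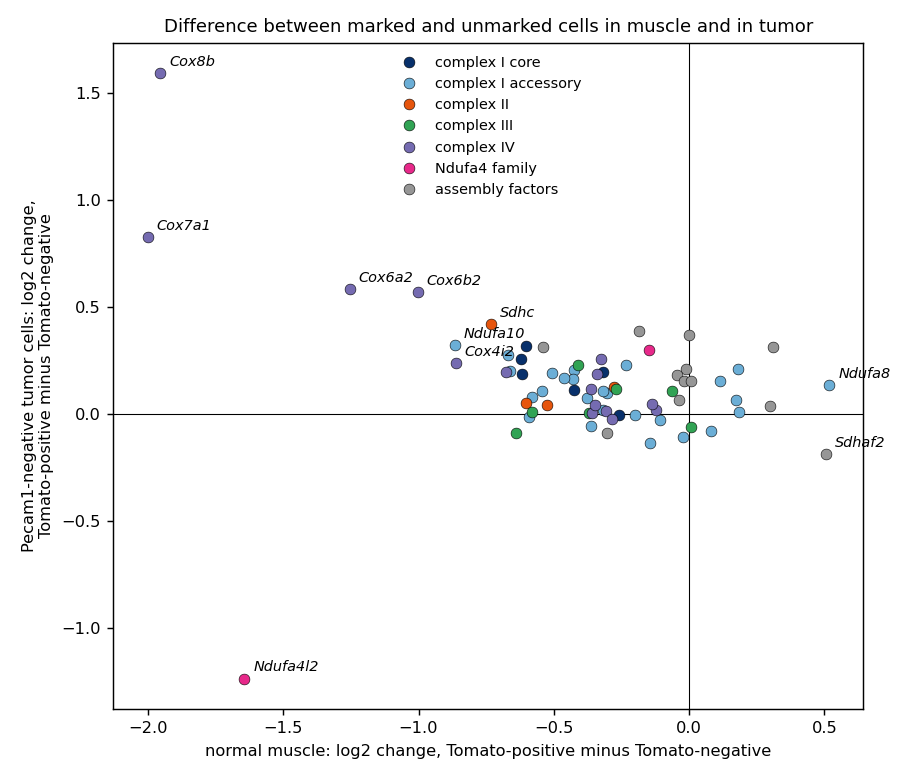
The log2 change of each of the 72 tested members between marked and unmarked cells, in normal muscle (horizontal axis) and among Pecam1-negative tumor cells (vertical axis), coloured by role. Most points lie left of 0 and slightly above it, with Cox8b (-1.95 and 1.59) and Cox7a1 (-2.00 and 0.83) far up and left and Ndufa4l2 (-1.64 and -1.24) below.

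Tumor was set against muscle on values from which each array's median had been subtracted, because the medians of tumor arrays exceeded those of muscle arrays by 0.34 on average. Uncentred values shift every difference up by about that amount, and the direction of many members turns on it, so counts are given on both. A member higher on centred values is moved further up uncentred. The uncentred values are therefore a check on the members called lower, and hardly one on those called higher. The comparison of endothelial populations (Pecam1-positive tumor cells minus marked muscle cells) had 7 members higher and 21 lower (38.9%), against 34.2% of all genes (15.7% higher, 18.5% lower). The share was near the background and the median change was -0.15, against -0.03 for all genes. Uncentred, 28 were higher and 4 lower, but the median of all genes was then 0.33 and that of the members 0.20, with 52.7% of all genes called. With quantile normalization 9 were higher and 17 lower (34.9% of all genes called). Higher with all 3 scalings were Ndufb11, Ndufc1, Ndufv1, Sdhb, Sdhc, Uqcrh and Uqcrq, and lower were Ndufa1, Ndufaf5, Ndufb6 and Ndufs4. Without muscle repeats 1 and 2 the median change was -0.30 for members and -0.08 for all genes. With those repeats left out, the change was 0.04 in Sdhb, 0.35 in Uqcrq, 0.61 in Uqcrh and 0.82 in Sdhc. It was -0.76 in Ndufa1, -0.86 in Ndufaf5, -0.75 in Ndufb6 and -1.35 in Ndufs4. That setting leaves 1 marked muscle array, so these sizes say nothing on the spread between muscle arrays. Cox7b, a subunit of complex IV, has a second probe set that went the other way in all 3 comparisons of tumor with muscle, so no direction is given for it. The same holds for the accessory subunit Ndufa12, whose second probe set had means of 8.37 in unmarked muscle and 8.77 in unmarked tumor cells, against 10.47 and 10.24 in the one used.

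Among these, Sdhc was 1.79-fold higher in tumor endothelium on centred values (0.84, SE 0.16, adjusted p = 0.000661). Its deposited values were 8.72, 8.85, 8.57 and 8.28 in tumor and 7.49, 7.34 and 7.40 in muscle, with no overlap. Uqcrh was 1.6-fold higher (adjusted p = 0.000118), and it was also higher in the other tumor populations against unmarked muscle cells, by 0.32 and 0.33, calls that were lost without muscle repeats 1 and 2 (0.20 and 0.21, adjusted p = 0.287 and 0.27). Ndufs4, an accessory subunit needed to finish the assembly of complex I, went down in tumor endothelium by 1.17 (adjusted p = 9.39e-07), with deposited values of 8.38, 8.54, 8.43 and 8.31 against 9.06, 9.25 and 9.37. It was lower also in the unmarked tumor cells (-0.97, adjusted p = 2.51e-06) and in the marked Pecam1-negative ones (-1.07, adjusted p = 7.32e-07) against unmarked muscle cells, and its groups did not overlap in any of the 3. Of the muscle isoforms Cox7a1 fell by 0.93 on centred values (adjusted p = 0.0229), but by 0.57 uncentred (adjusted p = 0.116), and Cox8b and Cox6a2 differed by -0.48 and 0.18 and did not pass.

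Unmarked tumor cells against unmarked muscle cells had 38 members lower and 2 higher, Uqcrh and Sdhaf2 (55.6% called), against 48.7% of all genes (24.9% lower, 23.8% higher). The median change was -0.41 for members and -0.02 for all genes. Uncentred, 15 were higher and 22 lower, with medians of -0.076 for members and 0.32 for all genes and 58.8% of all genes called. With quantile normalization the split was 2 to 38 (49.5% of all genes called). The same 22 were lower with all 3 scalings, Ndufa12 with its discordant second probe set included, and among them were Ndufs1, Ndufs3, Ndufs4, Uqcrfs1, Cox4i1, Cox5b and the pairs Cox7a1 with Cox7a2 and Cox8b with Cox8a. Without muscle repeats 1 and 2, 38 were called, all lower (32.7% of all genes called). Complex I had 23 of its 32 subunits lower, 4 of them core, complex III 3 of 7 and complex IV 8 of 15, and without those repeats the counts were 21, 4 and 9. In complex II the only call was Sdha (-0.22, adjusted p = 0.0497), which was 0.12 uncentred and lost its call with quantile normalization (adjusted p = 0.104).

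Cox7a1 had the largest fall of this comparison among the members, by 2.58 (SE 0.3, adjusted p = 2.81e-06), followed by Cox8b with 2.16 (adjusted p = 0.000914), whose unmarked muscle array of repeat 2 lay within the range of the tumor arrays. Cox6a2 did not follow (0.02, adjusted p = 0.967), and without that muscle array its difference was -0.60 (adjusted p = 0.0307). Their partners, read at much tighter spreads, fell by 0.71 in Cox6a1 (adjusted p = 1.17e-05), 0.87 in Cox7a2 (adjusted p = 4.97e-05) and 0.89 in Cox8a (adjusted p = 4.95e-07). Leukocyte genes were higher in the unmarked tumor cells, with all 8 of the list called and list means of 9.28 to 10.1 against 7.33 to 7.43 in unmarked muscle cells. Their part in the result was not tested.

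Marked Pecam1-negative tumor cells, set against unmarked muscle cells, had 34 members lower and 5 higher (54.2%), against 47.1% of all genes (23% lower, 24.1% higher), with a median of -0.27 against 0.01. This comparison shares its muscle arrays with the one before. Uncentred, 23 were higher and 17 lower, with medians of 0.065 for members and 0.34 for all genes and 60.8% of all genes called. With quantile normalization the split was 3 and 32 (47.6% of all genes called). Without muscle repeats 1 and 2 the median change was -0.45 for members and -0.02 for all genes. With those repeats left out, the change was 0.61 in Sdhaf2, 0.58 in Sdhc and 0.21 in Uqcrh. It was -1.33 in Ndufs4 and -1.80 in Cox7a1. From 1 unmarked muscle array, these sizes cannot show whether the changes repeat between arrays. On all muscle arrays, the members higher with all 3 scalings were Sdhaf2, Sdhc and Uqcrh. Lower with all 3 were 17, among them Ndufs4, Ndufa1, Ndufb8, Uqcr11 and Cox7a1. Here Cox8b and Cox6a2 did not pass (-0.57 and 0.61, adjusted p = 0.324 and 0.145), while Cox7a1 fell by 1.75 (adjusted p = 0.000144). Without muscle repeats 1 and 2, which leaves 1 unmarked muscle array, Cox8b differed by -0.99. Ndufa4l2 fell by 1.74 (adjusted p = 0.000289). Of the sarcomere list 7 genes were higher and 2 lower in these tumor cells, with changes over the list from -4.00 to 3.74. Myh3, an embryonic myosin, was higher by 3.74 (adjusted p = 2.69e-08). Ckm was lower, by a change of -1.51 (adjusted p = 0.031), which was not the largest fall of the list.

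**Figure D4:**
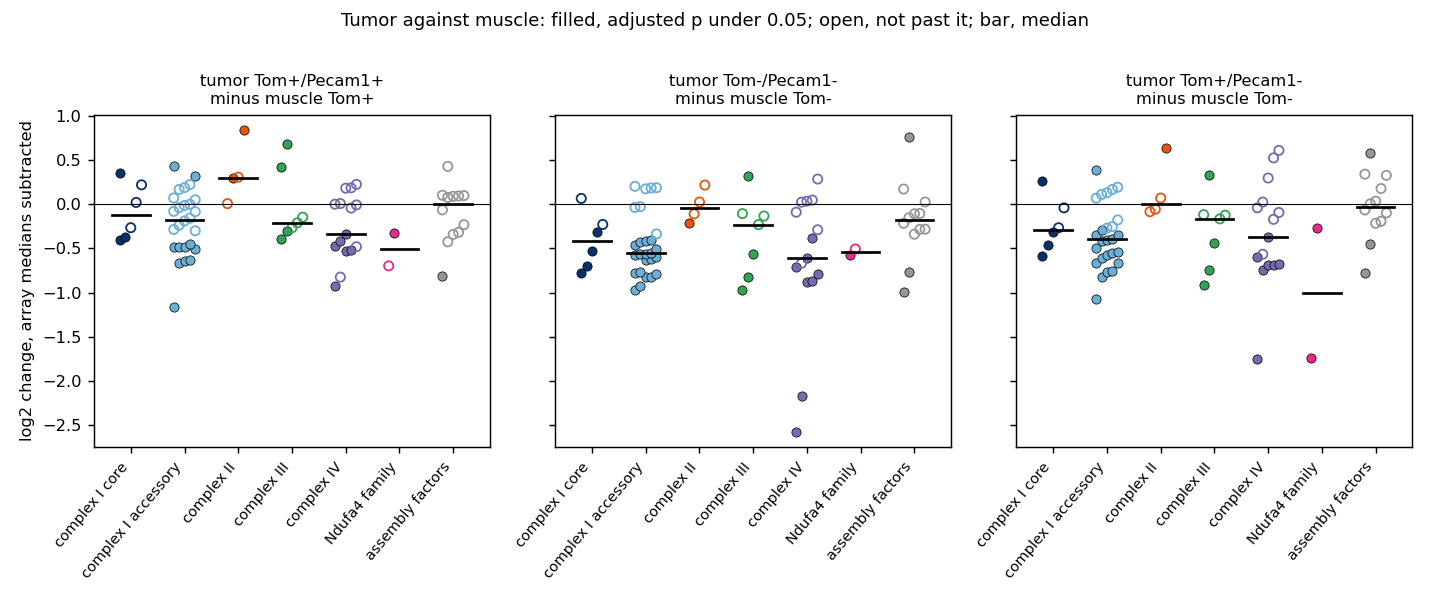
The log2 change of each member, array medians subtracted, between the tumor and muscle populations named above each panel (vertical axis), by role (horizontal axis), with filled points past an adjusted p of 0.05, open points not past it, and the median of each role as a bar. Complex I accessory subunits lie mostly below 0 (medians of -0.18, -0.56 and -0.40 from left to right), while complex II has medians of 0.30, -0.04 and 0.00.

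Genes that work with the chain were read from lists. ATP synthase (16 genes) had 11 lower and 1 higher in marked muscle cells (median -0.44), 8 lower and 2 higher in Pecam1-positive against marked Pecam1-negative tumor cells, and 11 higher mark effects in the interaction (median 0.59). In marked muscle cells its genes of smallest adjusted p were the inhibitor Atpif1 (-0.71, adjusted p = 1.68e-06), Atp5a1 (-0.74) and Atp5g3 (-0.67). The tricarboxylic acid cycle (12 genes) had 10 lower in marked muscle cells (median -0.51), led by Idh3a, a subunit of the NAD-dependent isocitrate dehydrogenase (-1.17, adjusted p = 6.86e-06), and Mdh2 (-0.70). In Pecam1-positive tumor cells 6 of its genes were lower, and in the interaction 10 were higher. In marked muscle cells 5 ATP synthase and 3 cycle genes were called lower without muscle repeats 1 and 2, and in the interaction 6 of each.

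The mitochondrial ribosome (21 genes) had 5 lower in marked muscle cells and the cytochrome oxidase assembly list (14 genes) 3, with medians of -0.10 and -0.11. Each list had 1 lower without muscle repeats 1 and 2. Of 12 tested regulators of mitochondrial biogenesis 4 were lower and 2 higher, or 3 and 1 without those repeats. Ppargc1a, the coactivator PGC-1alpha that drives respiratory genes, lay at 6.01, 5.83 and 5.93 in unmarked and at 4.02, 4.41 and 4.27 in marked muscle cells (-1.69, adjusted p = 1.48e-08). In tumor it lay at 5.14, 5.59, 5.38 and 5.42 in unmarked, at 6.15, 6.13, 6.25 and 6.08 in marked Pecam1-negative and at 4.71, 4.27, 4.36 and 4.49 in Pecam1-positive cells. The 3 tumor populations did not overlap: Ppargc1a changed by 0.77 between unmarked and marked Pecam1-negative cells (adjusted p = 0.000122) and by -1.70 from those to the Pecam1-positive ones (adjusted p = 1.4e-09). In both endothelial populations Ppargc1a lay below the 40th percentile of every array (4.48 to 4.54 in muscle, 4.83 to 4.88 in tumor). The sizes of -1.69 and -1.70 thus rest on dim values. Ppargc1b, a relative of Ppargc1a, changed by -1.54 in muscle (adjusted p = 1.8e-06). Ucp1, the uncoupling protein of brown fat, lay between 4.35 and 5.21 on all arrays, while the brown adipocyte list (5 genes) was not flat. Its mean was 4.46 to 4.66 in unmarked and 4.12 to 4.37 in marked muscle cells, 5.20 to 5.68 in Pecam1-negative and 4.67 to 4.85 in Pecam1-positive tumor cells. Against unmarked muscle cells 3 of its 5 genes were higher and 1 lower in both Pecam1-negative tumor populations.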

How the data were processed

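The deposited values are log2 intensities of 41345 probe sets on 18 arrays, made by the authors with RMA and Partek, per the submitters' processing notes, with versions and the order of steps not given in the sources used here. RNA of sorted cells was amplified before labelling, per the labels' protocols. Symbols came from the platform annotation: 23521 probe sets had 1 symbol, 1814 several and 16010 none. Genes above the 40th percentile of their own array on at least 3 arrays were tested (16011, with 6169 dim genes left out).

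Group means of all 18 arrays were fitted in limma 3.58.1 (R 4.3.3) with 13 residual degrees of freedom, and p-values were adjusted by Benjamini-Hochberg over all tested genes, with 0.05 as the threshold. Tumor against muscle used values minus each array's median. Errors are SD, or SE of the fit, and intervals are 95%. The number of arrays limits the precision. Labels do not tie arrays to separate animals, so p-values measure the spread between arrays only, which may be technical.

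In muscle, same-numbered arrays deviated together (r from 0.271 to 0.31 over 3 pairs), so the numbers pair the samples there; in tumor the check is void, because the repeat means are equal. Every member may be named; isoform and complex II genes get full values, and otherwise the 2 largest calls of a role, or any where at most 5 passed. Up to 3 genes of a pathway list are named by smallest adjusted p. Members and lists were chosen with earlier results of these data known. Alternatives were other scalings, filters, thresholds, probe set rules, array weights, the repeat block and left-out arrays.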

Additional observations from a re-analysis of the deposited data

Results flagged for a closer look

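In 40 members, 120 groups of 4 tumor arrays were searched for an array far from the others of its group, and 8 were found. Chance flags about 1 independent group in 20, so the 8 lie near that share. The tumor repeat means are equal, which ties the populations of a repeat, so that share is only a guide. Among unmarked tumor cells, repeat 4 stood at 6.398 in Cox6b2 (the others at 7.486 to 7.691) and at 8.58 in Sdhaf2 (7.722 to 7.77), and repeat 1 at 9.338 in Sdha (9.399 to 9.411). Among marked Pecam1-negative tumor cells, repeat 4 stood at 7.111 in Ndufa4l2 (7.752 to 7.863) and at 7.201 in Ndufaf4 (7.554 to 7.56), and repeat 3 at 8.343 in Sdhd (8.094 to 8.131). Among Pecam1-positive cells, repeat 2 stood at 10.82 in Cox4i1 (10.47 to 10.51) and repeat 1 at 9.498 in Sdha (9.28 to 9.317). Of the 8 arrays 4 were of repeat 4, the younger one, but with flags near the chance share nothing on age is read from this.

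The mark effect differed between tumor and muscle, by the interaction in limma, in 24 of the members named. The difference on the log2 scale was 3.55 in Cox8b, 2.83 in Cox7a1, 1.84 in Cox6a2, 1.57 in Cox6b2 and 1.10 in Cox4i2. It was 0.87 in Cox8a and 0.53 in Cox7a2. In complex I it was 1.19 in Ndufa10, 0.95 in Ndufa11, 0.92 in Ndufs1, 0.88 in Ndufs7, 0.80 in Ndufv2, 0.63 in Ndufb6 and 0.53 in Ndufs3. In complex II it was 1.15 in Sdhc, 0.65 in Sdhb, 0.57 in Sdhd and 0.40 in Sdha. In complex III it was 0.64 in Uqcr11, 0.59 in Uqcrh and 0.55 in Uqcrfs1. Ndufa4 had 0.45, and the assembly factors Ndufaf4 and Ndufaf2 had 0.85 and 0.57. The call was lost with the repeat number as a block in Cox6b2, Cox7a2, Ndufaf2, Ndufs3, Sdha, Sdhd and Uqcrfs1, at adjusted p from 0.0519 to 0.0878. Without muscle repeats 1 and 2 it was lost in 11 of the 24: Cox6b2, Cox7a2, Ndufa11, Ndufa4, Ndufs3, Ndufs7, Sdha, Sdhb, Sdhd, Uqcr11 and Uqcrfs1, at adjusted p from 0.0517 to 0.364.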

How the results depend on the processing

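Of the counts of members called, 124 alternatives stayed within 1.5 times the main count and 24 did not. Counts are of the 72 tested members, with the share of all genes called in brackets. At a change of at least 2-fold they were 5 for muscle marked against unmarked (15.2%) and 2 for tumor marked against unmarked (6.22%). They were 5 for tumor Pecam1-positive against Pecam1-negative (14.3%) and 1 for the endothelial populations (4.6%). Unmarked tumor against unmarked muscle had 2 (11.7%), and marked tumor against unmarked muscle had 3 (10.5%). At adjusted p under 0.01 the counts were 3 for the tumor mark (15.2%), 14 for Pecam1 (32.8%) and 16 for the endothelial populations (20.7%). They were 25 for marked tumor against unmarked muscle (33.3%) and 21 for the interaction (27.5%). Without muscle repeats 1 and 2, which leaves 1 array a muscle group, the counts for the muscle mark, the endothelial populations and the interaction also moved. For the tumor mark, array weights gave 16 (34.9%), leaving out repeat 4 gave 4 (24.9%), and leaving out single arrays gave 3 to 11 (17.9 to 24.9%). Leaving out single arrays gave 30 to 36 for the muscle mark (34.5 to 36.9%) and 18 to 24 for Pecam1 (39.9 to 41.9%). The 3 tumor against muscle comparisons gave 19 to 28 (27.7 to 32.2%), 37 to 40 (42.8 to 47.2%) and 31 to 38 (41.1 to 43.6%). The interaction gave 25 to 38 (35.9 to 39.6%).

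With the repeat number as a replicate block the counts were 27 for the muscle mark, 4 for the tumor mark, 18 for Pecam1 and 25 for the interaction. Of all genes 32.4, 16.8, 36.3 and 31% were called in the same order. A random block gave 2 for the tumor mark and 15 for Pecam1, but it rests on a consensus correlation of -0.49 over both tissues. The tumor repeat means are equal, and same-numbered muscle arrays correlate at 0.271 to 0.31, so the random block is void and nothing is read from it.

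Among the 5920 values of named genes under an alternative, 177 changed sign, and 162 of these passed the threshold neither before nor after. The other 15 passed in at least 1 of the fits. Uncentred, the endothelial comparison gave 0.021 in Cox4i1, 0.31 in Ndufa10, 0.030 in Ndufa4 and 0.34 in Ndufa8. Unmarked tumor against unmarked muscle gave 0.12 in Sdha and 0.23 in Sdhb. Marked tumor against unmarked muscle gave 0.29 in Cox7a2l, 0.065 in Ndufa4, 0.039 in Ndufa8, 0.25 in Sdha and 0.28 in Sdhb. With the mean of all probe sets Cox7b gave -0.53, -0.81 and -0.68 in the same 3 comparisons. Cox6a2 in unmarked tumor against unmarked muscle was -0.60 without unmarked muscle repeat 2, and over single arrays left out its value ran from -0.60 to 0.57. Centring is by construction the cause of the uncentred shifts; the cause of the others was not tested.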
